A study of Mus musculus with 4 samples.

Results

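The 10 genes described here encode proteins of the neutrophil, and they were read out in 4 RNA-seq libraries of mouse joint cartilage. They were chosen by name, and their Ensembl identifiers were matched to symbols with the GENCODE mouse annotation. All 10 were found, 1 identifier each, among 50686 identifiers of the hip libraries and 54838 of the knee libraries. They fell into 3 classes, which were early granule genes (Mpo, Elane, Prtn3 and Ctsg), late granule genes (Ltf, Camp and Ngp) and mature genes (S100a8, S100a9 and Csf3r). The class names say where in neutrophil maturation a gene is best known, and no cell was staged in these samples.

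Neutrophils are short-lived phagocytes that the bone marrow makes in large numbers. As promyelocytes turn into myelocytes, band cells and segmented cells, they switch on granule genes in waves, so that the azurophil granule proteases and myeloperoxidase are transcribed first, the contents of specific granules later, and calprotectin and surface receptors dominate in ripe cells. Granulocyte colony-stimulating factor (G-CSF), acting through the receptor encoded by Csf3r, drives this output and the release of neutrophils into blood. Cbfβ is the partner subunit of the Runx transcription factors, which take part in blood cell development as well as in cartilage.

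All 4 groups carried the floxed allele Cbfb f/f, and each group was 1 library. The hip control was labelled Cbfb f/f with no treatment, and the hip library labelled Cbfβ-deficient came from Cbfb f/f;Col2α1-CreERT mice injected with tamoxifen (TMX). The knee control came from oil-injected Cbfb f/f;Aggrecan-CreERT mice and the knee library labelled Cbfβ-deficient from the same genotype after TMX. Both Cre drivers are chondrocyte promoters, so neutrophils were not the cells targeted. By its labels the hip control thus had neither Cre nor TMX, although the study's methods name TMX or corn oil for Cbfb f/f mice, and the knee control carried Cre without TMX. The study describes the hip samples as cartilage and the knee samples as cartilage with bone, and its hip mice were younger than its knee mice. Whether a library pooled several animals is not stated. Joint, Cre driver, age, kind of control and the gene annotation used for counting differed together, and their parts cannot be told apart.

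Counts on genes ranged from 34264456 to 38473120 per library, and 3 counts, taken as the floor, correspond to between 0.0780 and 0.0876 counts per 1000000 counts on genes (CPM). Cbfb itself had 2548 and 2946 counts in the hip control and in the hip library labelled Cbfβ-deficient, a log2 ratio of 0.41 (0.33 to 0.48), and 3796 and 4572 in the knee pair, a log2 ratio of -0.07 (-0.13 to -0.01). The targeted gene was thus higher, not lower, in the hip library labelled deficient (-0.26 on the log2 scale once a trend with transcript length and GC content was subtracted). Cbfb was about level in the knee pair, at -0.004 (-0.07 to 0.06) with that trend subtracted. Counts over the whole gene do not show, in either joint, whether exons were removed in chondrocytes. The counts therefore do not settle which hip library carried the deletion. All hip directions given here follow the labels, and each would turn if those 2 labels were exchanged. Markers of other tissues were present in all libraries. The 8 skeletal muscle markers summed to 117552 and 106514 CPM in the hip control and the hip library labelled deficient, against 285 and 302 CPM for the 12 chondrocyte markers. In the knee libraries, the muscle markers summed to 10134 and 20299 CPM and the chondrocyte markers to 5507 and 3114 CPM. No neutrophil gene of the 10 or of the 26 others listed further on was at 0 in any library.

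Promoter sequence from RefSeq (build GRCm38.p6) is shown for 6 of the 10 genes, chosen to hold 3 early granule genes with closely spaced letters and to set beside them a gene of each other kind of response. Each line gives the 250 bases before the annotated start, 5′ to 3′ on the strand of the gene. Capitals mark TGTGG, the core of Runx sites, and GAGGAA, a core of ETS sites of the kind PU.1 binds, on either strand (as CCACA and TTCCTC on the other). The motifs were chosen after the sequences were seen. The windows lie at chr11:87793534-87793783 (plus strand) for Mpo, chr10:79886062-79886311 (plus strand) for Elane, chr10:79879417-79879666 (plus strand) for Prtn3, chr9:109849457-109849706 (minus strand) for Camp, chr3:90668821-90669070 (plus strand) for S100a8 and chr4:126024409-126024658 (plus strand) for Csf3r.
Mpo: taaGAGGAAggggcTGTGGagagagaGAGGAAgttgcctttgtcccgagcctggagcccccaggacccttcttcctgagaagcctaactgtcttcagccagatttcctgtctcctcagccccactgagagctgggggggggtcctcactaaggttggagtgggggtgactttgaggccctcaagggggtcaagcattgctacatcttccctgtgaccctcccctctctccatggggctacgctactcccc
Elane: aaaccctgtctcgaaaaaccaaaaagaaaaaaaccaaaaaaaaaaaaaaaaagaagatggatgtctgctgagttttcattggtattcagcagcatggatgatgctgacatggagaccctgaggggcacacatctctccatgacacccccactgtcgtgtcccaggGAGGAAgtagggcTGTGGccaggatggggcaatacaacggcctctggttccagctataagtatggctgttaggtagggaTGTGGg
Prtn3: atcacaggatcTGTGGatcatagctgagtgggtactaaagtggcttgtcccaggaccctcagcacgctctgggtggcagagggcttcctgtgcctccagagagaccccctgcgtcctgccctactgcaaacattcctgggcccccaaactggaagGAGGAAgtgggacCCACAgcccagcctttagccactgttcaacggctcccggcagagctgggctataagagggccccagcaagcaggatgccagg
Camp: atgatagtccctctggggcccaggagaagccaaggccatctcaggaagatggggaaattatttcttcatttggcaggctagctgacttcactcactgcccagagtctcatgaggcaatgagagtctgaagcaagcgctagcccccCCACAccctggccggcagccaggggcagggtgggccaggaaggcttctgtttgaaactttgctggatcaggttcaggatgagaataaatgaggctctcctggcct
S100a8: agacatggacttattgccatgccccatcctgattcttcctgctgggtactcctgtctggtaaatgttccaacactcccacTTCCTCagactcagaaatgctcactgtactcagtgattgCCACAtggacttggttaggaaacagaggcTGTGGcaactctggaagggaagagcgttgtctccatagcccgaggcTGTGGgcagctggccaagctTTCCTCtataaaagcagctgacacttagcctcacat
Csf3r: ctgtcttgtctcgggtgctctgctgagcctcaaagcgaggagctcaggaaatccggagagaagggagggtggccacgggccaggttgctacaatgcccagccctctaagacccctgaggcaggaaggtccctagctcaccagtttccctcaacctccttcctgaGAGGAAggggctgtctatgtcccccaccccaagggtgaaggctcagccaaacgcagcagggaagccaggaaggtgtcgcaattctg

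The Runx core was present in 8 of 10 members, against 49.3% of 32841 RefSeq promoters of the same length, and the ETS core in 7 of 10, against 23.3%. Both were found in 5 of 10 members and in 11.7% of all promoters. Elane and Prtn3 lie in the same direction on chromosome 10, with starts 6645 bases apart, and each has 7 bases between its nearest Runx and ETS cores. In Mpo 5 bases separated them, and in S100a8 15. In Csf3r and Ltf the Runx letters were not in the window, and in Camp, Ngp and S100a9 the ETS letters were not. These matches describe letters and are not binding sites measured here.

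Transcripts of all 10 genes were far more abundant in the knee libraries than in the hip libraries. Together they took 0.0446% of counts in the hip control and 3.35% in the knee control, and 0.0488% and 2.78% in the libraries of each joint labelled Cbfβ-deficient. In CPM, the knee control over the hip control ranged from 20.6 for Csf3r to 93.3 for S100a8, across files counted on different gene annotations. In bulk samples, fewer neutrophils and less RNA of these genes per neutrophil cannot be told apart. Erythroid markers, which are found in marrow and blood, moved the same way between joints, from 5894 CPM in the hip control to 100068 CPM in the knee control, and their part in the difference was not tested.

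The order of the genes by level was the same in both control libraries. Per kilobase of transcript, S100a9 and S100a8, the calprotectin subunits, stood highest in the knee control with 20442 and 13962 CPM per kb, ranking 4 and 6 among 50764 genes with a length. Camp, Ngp and Ltf followed with 6212, 3753 and 1104 CPM per kb. The early genes came next, from 773 for Prtn3 to 148 for Ctsg, and Csf3r was lowest with 26.9 CPM per kb. In the hip control the order ran from S100a9, with 258 CPM per kb and rank 233 among 46545 genes, to Csf3r, with 1.30. The hip library labelled deficient departed from this order at 3 places. Ngp, at 57.6 CPM per kb, stood above Camp at 40.1, Elane at 5.98 above Prtn3 at 5.56, and Csf3r at 4.44 above Mpo at 3.93 and Ctsg at 1.76. The knee library labelled deficient kept the order, with Camp and Ngp close together at 4109 and 4094.

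**Figure D1:**
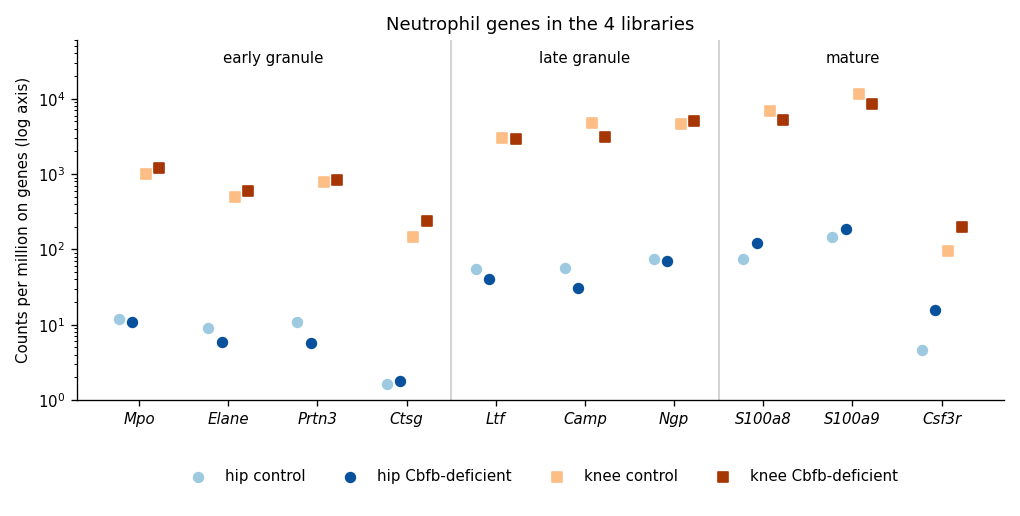
CPM, on a log axis, for the 10 genes in the 4 libraries (circles for hip, squares for knee, 1 point per library). Every knee point lies above every hip point of the same gene, with Csf3r the closest pair of joints at 4.57 and 15.6 CPM in the hip and 94.4 and 201 CPM in the knee.

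The comparison of the hip libraries asked how these genes differed once Cbfb had been targeted with Col2α1-CreERT. Csf3r was higher in the hip library labelled Cbfβ-deficient, most early and late granule genes were lower or about level, and the calprotectin genes were higher. A log2 ratio here is the normalized count of the library labelled Cbfβ-deficient over its control's, with an interval (95%) for counting error in parentheses. A gene was called if its interval lay off 0, the ratio was 1 or more in either direction and the pair together held 10 or more counts. All 10 genes passed the count minimum in both joints. Of the 10, 1 was called higher in the hip and 0 lower, where 20.2% of all 19856 genes tested were called higher and 16.3% lower (36.5% in all). By the interval alone, 3 of the 10 were higher and 4 lower, against 37.3% and 33.7% of all genes (71.0% in all), and at a log2 ratio of 2 or more 0 were higher, against 7.33%. With 1 library per condition there is no replicate error, so no test between conditions was possible and the intervals cover counting error only.

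Among the early genes, Prtn3, which encodes the serine protease proteinase 3, had 414 counts in the hip control and 197 in the library labelled deficient, a log2 ratio of -0.87 (-1.13 to -0.63). Elane encodes neutrophil elastase and had 352 and 204 counts, a log2 ratio of -0.59 (-0.85 to -0.34). As counted, both neighbouring genes were lower, by 1.83-fold and 1.50-fold, but once a trend with transcript length and GC content was subtracted (described further on) their intervals held 0, at -0.43 to 0.07 for Prtn3 and -0.25 to 0.26 for Elane. Mpo, the myeloperoxidase that makes hypochlorous acid, had 459 and 374 counts and a log2 ratio of -0.10 (-0.30 to 0.10). Ctsg, encoding cathepsin G, had 62 and 61 counts and a log2 ratio of 0.17 (-0.36 to 0.71). The intervals of Mpo and Ctsg included 0 as counted, and lay above it with that trend removed, at 0.07 to 0.47 and 0.06 to 1.12.

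The late genes differed among themselves in the hip. Camp, the precursor of the cathelicidin antimicrobial peptide, had 2191 counts in the control and 1057 in the library labelled deficient, a log2 ratio of -0.85 (-0.96 to -0.75). Ltf encodes the iron-binding lactoferrin and had 2120 and 1397 counts, a log2 ratio of -0.40 (-0.50 to -0.31). Ngp, encoding neutrophilic granule protein, had 2892 and 2447 counts and a log2 ratio of -0.04 (-0.12 to 0.03). Camp, Ltf and Ngp all lie on chromosome 9, and Camp was 1.81-fold lower as counted. With the trend over length and GC subtracted the hip values were -0.32 for Camp, -0.18 for Ltf and 0.36 (0.28 to 0.44) for Ngp, so Ngp then stood on the other side of 0.

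The mature genes were all higher in the hip library labelled Cbfβ-deficient. Csf3r, the G-CSF receptor gene, had 176 counts in the control and 539 in the library labelled deficient, a log2 ratio of 1.81 (1.56 to 2.07), or 3.51-fold, in the direction the labels give. S100a8 had 2834 and 4195 counts, a log2 ratio of 0.76 (0.69 to 0.83). Its partner S100a9 had 5673 and 6401 counts, a log2 ratio of 0.37 (0.32 to 0.42). The class medians were -0.34 for early, -0.40 for late and 0.76 for mature genes, beside a median of 0.01 over all genes tested.

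In the knee the comparison was between TMX and oil in Cbfb f/f;Aggrecan-CreERT mice. Csf3r had the highest ratio of the 10 and Camp the lowest, the calprotectin genes were lower and the early genes stood near or above the control. Of the 10, 0 were called in either direction, where 9.00% of 21131 genes were called higher and 6.81% lower (15.8% in all). Counts were large, so the intervals alone put 4 of the 10 above 0 and 6 below, against 31.9% and 29.7% of all genes (61.6% in all).

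Csf3r had 3236 counts in the knee control and 7672 in the knee library labelled Cbfβ-deficient, a log2 ratio of 0.91 (0.85 to 0.97), or 1.87-fold. S100a8 had 235369 and 200277 counts, a log2 ratio of -0.57 (-0.58 to -0.56). S100a9 had 400648 and 321621 counts, a log2 ratio of -0.66 (-0.66 to -0.65). The mature class was therefore split in the knee, with the receptor gene higher and both calprotectin genes lower. Among the late genes, Camp had 162406 and 119838 counts, a log2 ratio of -0.78 (-0.79 to -0.77). Ltf had 104513 and 112725 counts and a log2 ratio of -0.23 (-0.24 to -0.22). Ngp was close to level, with 157919 and 192205 counts and a log2 ratio of -0.06 (-0.07 to -0.05), which became 0.13 when libraries were scaled by their totals alone.

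Ctsg stood out among the early genes of the knee, with 5083 counts in the control and 9074 in the library labelled deficient, a log2 ratio of 0.50 (0.45 to 0.55). Elane had 16836 and 23138 counts, a log2 ratio of 0.12 (0.09 to 0.15). Mpo had 34254 and 46106 counts, a log2 ratio of 0.09 (0.07 to 0.11). Prtn3 was near level, with 27145 and 31484 counts and a log2 ratio of -0.13 (-0.15 to -0.10), and its direction turned under scaling by library totals, to 0.06. The class medians were 0.10 for early, -0.23 for late and -0.57 for mature genes, against 0.02 over all genes. Scaling by library totals moved all genes of the knee by 0.18 on the log2 scale.

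**Figure D2:**
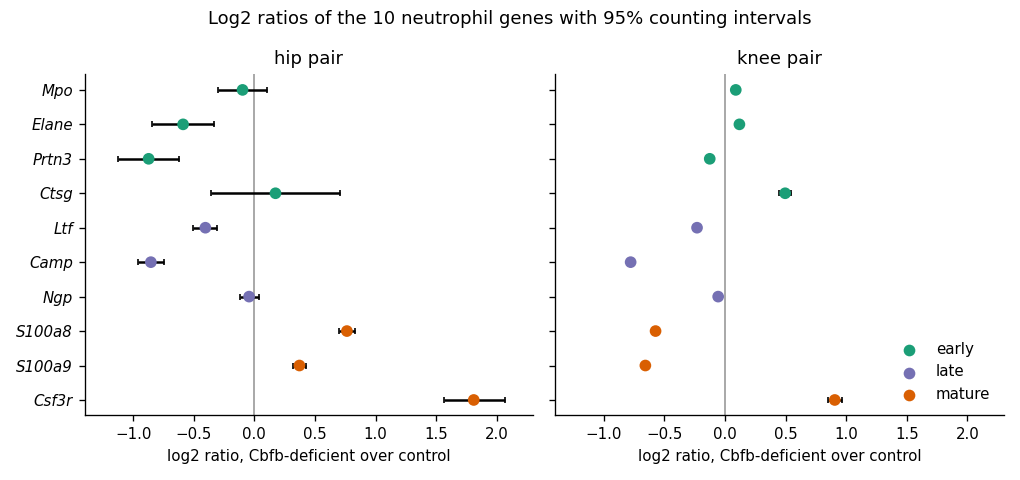
Log2 ratio of the library labelled Cbfβ-deficient over the control library for each gene, in the hip pair (left) and the knee pair (right), with bars for the 95% counting interval. Csf3r lies farthest to the right in both panels, at 1.81 (under the hip labels) and 0.91, while S100a8 and S100a9 lie to the right of 0 in the hip and to the left in the knee. Prtn3 and Ngp in the knee, at -0.13 and -0.06, cross 0 when libraries are scaled by their totals.

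Ratios between classes within a library do not depend on scaling between libraries. In the hip control, early genes made up 7.49% of the counts of the 10 genes, late genes 41.9% and mature genes 50.6%. In the hip library labelled Cbfβ-deficient the shares were 4.95%, 29.0% and 66.0%, so the mature share was the larger there. In the knee the mature share was instead lower in the library labelled deficient, at 55.7% in the control and 49.8% in the library labelled deficient, and the early share went from 7.26% to 10.3%. Most mature counts in every library were of S100a8 and S100a9.

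The ratio of mature to late counts was 1.21 in the hip control and 2.27 in the hip library labelled deficient, a log2 change of 0.91 (0.85 to 0.98). In the knee this ratio was 1.50 and 1.25, a log2 change of -0.27 (-0.28 to -0.26). Mature to early counts changed by 0.98 (0.85 to 1.11) in the hip and by -0.67 (-0.68 to -0.66) in the knee. As counted, both ratios with the mature class in them moved in opposite directions in the joints, beyond counting error. Csf3r itself was higher in both pairs under the labels, at 1.81 and 0.91. It gave only 176 of the 8683 mature counts in the hip control and 3236 of 639253 in the knee control. These class ratios therefore mostly follow S100a8 and S100a9. Such ratios still depend on transcript length. After subtraction of a trend with length and GC content, the knee class medians were 0.15 for early, -0.31 for late and -0.09 for mature genes. The mature median thus stood above the late one in the knee as in the hip, but single genes did not separate by class. Ngp, a late gene, had 0.17 in the knee, above S100a8 at -0.09 and S100a9 at -0.18. It had 0.36 in the hip, level with S100a8 at 0.36 and above S100a9 at 0.09.

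Early against late genes gave a different picture. The early genes were 15.2% (14.4 to 15.9%) of early and late counts in the hip control and 14.6% (13.7 to 15.5%) in the hip library labelled deficient, a difference of -0.59 percentage points with overlapping Clopper-Pearson intervals. In the knee the share was 16.4% (16.3 to 16.5%) in the control and 20.5% (20.4 to 20.6%) in the library labelled deficient, a difference of 4.14 percentage points. The hip change in the early to late ratio was -0.07 (-0.20 to 0.07) on the log2 scale, and the knee change was 0.40 (0.38 to 0.41).

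**Figure D3:**
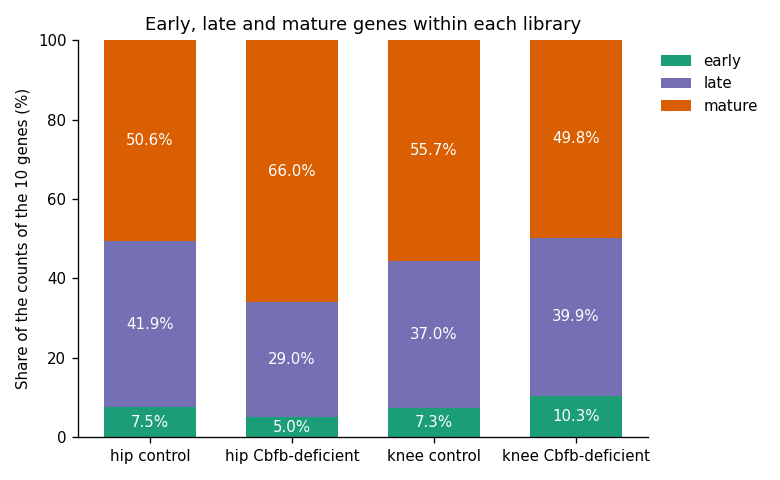
Share of the summed counts of the 10 genes taken by the early, late and mature classes in each library, in percent. The mature share is 50.6% and 66.0% in the hip control and the hip library labelled deficient and 55.7% and 49.8% in the knee pair. Most of it is counts of S100a8 and S100a9.

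Pairs of genes within a library were compared next, and the pairs named were chosen after their counts were seen. The ratio of Csf3r to S100a9 changed by 1.44 (1.19 to 1.69) on the log2 scale in the hip and by 1.56 (1.50 to 1.62) in the knee. Camp to Ngp changed by -0.81 (-0.94 to -0.68) in the hip and by -0.72 (-0.74 to -0.71) in the knee. Ctsg to Prtn3 changed by 1.05 (0.48 to 1.61) and 0.62 (0.57 to 0.68). Taking the labels as given, these 3 ratios moved the same way in both joints, and they would move in opposite ways if the hip labels were exchanged. The ratio of the calprotectin genes to each other, S100a8 to S100a9, changed by 0.39 in the hip and by 0.08 in the knee. Of all 45 pairs of the 10 genes, 36 changed beyond their counting intervals in both joints, of which 23 went the same way and 13 the opposite way under the labels. These pairs reuse the same 10 genes, and no share over pairs of other genes was computed. Intervals of single genes lay off 0 for 71.0% of all genes in the hip and 61.6% in the knee.

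Transcript length and base composition moved with the ratios of all genes. For the hip libraries, the median was -0.26 for transcripts under 1000 bases and 0.42 for those over 4000 bases, and for the knee libraries -0.34 and 0.19. The 10 genes span these lengths, from 492 bases for S100a8 and 572 for S100a9 to 763 for Camp, 2764 for Ltf and 3508 for Csf3r. After subtracting the trend with length and GC content, Csf3r had the highest ratio of the 10 in the knee, at 0.75, and in the hip under the labels, at 2.04. Camp had -0.32 and -0.43. The differences of Elane and Prtn3 in the hip shrank, from -0.59 to 0.0096 for Elane and from -0.87 to -0.17 for Prtn3. Those of S100a8 shrank to 0.36 in the hip and to -0.09 in the knee, and those of S100a9 to 0.09 and -0.18. The early median in the hip turned from -0.34 to 0.14. Ctsg stood at 0.59 in the hip and 0.65 in the knee. After this step 13.6% of all genes were called higher and 15.5% lower in the hip, the knee shares were 9.29% and 5.29%, and the calls of the 10 genes were as before, with Csf3r higher in the hip.

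**Figure D4:**
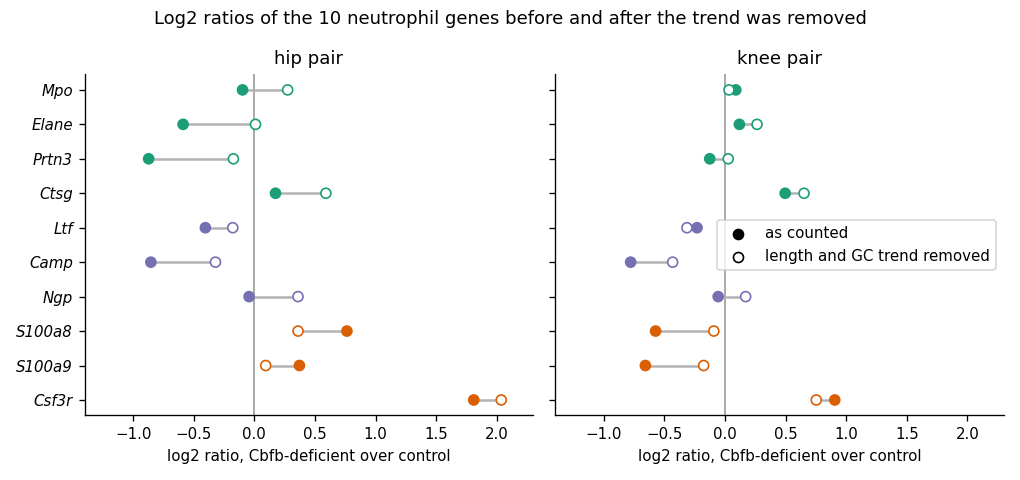
Log2 ratio of each gene as counted (filled points) and once the length and GC trend was taken out (open points), for the hip and the knee pair. Csf3r and Camp keep their side of 0 in both joints, whereas Mpo, Elane and Ngp cross 0 in the hip and Prtn3 and Ngp in the knee.

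Neutrophils express many genes beyond these 10, and lists of 26 others were read in the same way. Of 11 other mature neutrophil genes, 9 were called higher and 0 lower in the hip, with a median log2 ratio of 1.35, beside 20.2% of all genes called higher. With the length and GC trend removed 7 were called higher, beside 13.6% of all genes. Retnlg, which encodes a resistin-like protein of neutrophils, had 616 counts in the hip control and 1654 in the library labelled deficient, a log2 ratio of 1.62. Ly6g, the surface antigen used to sort mouse neutrophils, had 85 and 94 counts and a log2 ratio of 0.34 (-0.10 to 0.78). In the knee, 1 of these 11 was called higher and 2 lower, beside 9.00% and 6.81% of all genes, with a median of -0.09. Under scaling by library totals 0 were lower and the median was 0.09. Retnlg had 47321 and 29041 counts there, a log2 ratio of -1.04 (-0.55 with the trend removed), and Ly6g 4937 and 3944, a log2 ratio of -0.66.

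Of 9 other late granule genes, 4 were called higher and 0 lower in the hip, beside 20.2% and 16.3% of all genes, with a median of 0.73. This was the opposite side of 0 from the 3 late members, whose median was -0.40. Chil3, a chitinase-like secreted protein, rose from 434 to 1094 counts, a log2 ratio of 1.53. Lcn2, the iron-scavenging lipocalin, had 804 and 1160 counts and a log2 ratio of 0.73, and Mmp9, gelatinase B, had 903 and 897 counts and 0.19. In the knee 0 of the 9 were called, beside 9.00% of all genes higher and 6.81% lower, with a median of -0.23. Of 6 other early genes, 0 were called higher and 1 lower in the hip, where 16.3% of all genes were called lower, with a median of -0.22. With the trend removed 2 were called higher and 0 lower, beside 13.6% and 15.5% of all genes. That 1 was Gfi1, a repressor needed for granulopoiesis, named after its values were seen, which had 34 and 12 counts. Ms4a3, a marker of granulocyte and monocyte progenitors, had 53 and 29 counts in the hip and a log2 ratio of -0.66 (-1.38 to 0.01), and Fcnb, ficolin B, 38 and 47 counts and 0.50 (-0.14 to 1.16). In the knee 0 of 6 were called, beside the same 9.00% and 6.81% of all genes, with a median of 0.15.

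The ligand of Csf3r was at the limit of detection. Csf3, which encodes G-CSF and is named as that ligand with its values known, had 0 and 1 counts in the hip control and the hip library labelled deficient and 1 and 0 in the knee pair, under the floor of 3 counts in every library. Of the 9 other genes of the G-CSF axis, 1 was called higher in the hip, beside 20.2% of all genes. Of these 9, 0 were called in the knee, beside 15.8% of all genes, and the medians were 0.14 (hip) and 0.15 (knee). The called gene was Jak2, the kinase bound to the receptor, named after its values were seen, with 594 and 1430 counts in the hip and a log2 ratio of 1.46. Stat3, which carries the signal to the nucleus, had 2449 and 2347 counts in the hip (log2 ratio 0.14) and 4539 and 5459 in the knee (-0.07). Stat5b, another such factor, had 8592 and 5923 counts in the hip (log2 ratio -0.34, -0.39 to -0.29) and 2720 and 4496 in the knee (0.39). Ptpn11, the phosphatase SHP2, had log2 ratios of 0.31 and 0.72. By their intervals, 4 of the 9 lay above 0 and 3 below in the hip, beside 37.3% and 33.7% of all genes, and 7 above and 2 below in the knee, beside 31.9% and 29.7%. Most of these genes are made by many cell types, so their counts are not those of neutrophils alone.

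Of 7 myeloid transcription factor genes, 0 were called in either joint, beside 36.5% and 15.8% of all genes, with medians of 0.32 and -0.07. With the trend removed 1 was called higher in the hip, beside 13.6% of all genes, which was Cebpb, a factor of emergency granulopoiesis, at 1.04. Spi1, encoding PU.1, had 473 and 369 counts in the hip (log2 ratio -0.16, -0.36 to 0.04, or 0.36 with the trend removed) and 9243 and 9691 in the knee (-0.27). Among the NADPH oxidase genes, Cyba, the small membrane subunit, was called lower in the hip, with 1144 and 491 counts and a log2 ratio of -1.02 (-0.31 with the trend removed). In the knee 0 of 6 were called, beside 15.8% of all genes.

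Of 6 inhibitors of neutrophil serine proteases, 0 were called higher and 1 lower in the hip, where 16.3% of all genes were lower, and 1 higher and 2 lower in the knee, beside 9.00% and 6.81%. Serpinb1a, an intracellular elastase inhibitor, had log2 ratios of 0.77 and 0.15, and Slpi, a secreted one, 0.44 and -0.39. Serpina3n was called higher in the knee, from 196 to 509 counts, a log2 ratio of 1.04, and had 0.90 in the hip. Among chemokine and marrow retention genes, 0 of 8 were called in the knee, beside 15.8% of all genes. Of 5 tested in the hip, 1 was called higher and 1 lower, beside 20.2% and 16.3% of all genes. The former, Itga4, an integrin chain named after its values were seen, had a log2 ratio of 1.00, which became -0.43 with the trend removed. The latter, Cxcl3, a neutrophil-attracting chemokine also named after its values were seen, had 25 and 7 counts and a log2 ratio of -1.57, and -2.04 with the trend removed. Cxcl12, the retention signal read by Cxcr4, had log2 ratios of -0.34 and -0.32, with Cxcr4 at 0.08 and -0.35. Of the 3 calprotectin receptor genes, Tlr4 was called higher in the hip, from 63 to 197 counts (log2 ratio 1.83), and Ager lower, from 134 to 41 (-1.50), while 0 were called in the knee, beside 20.2% of all genes higher and 16.3% lower in the hip and 15.8% in the knee. With the trend removed neither was called in the hip, at 0.75 and -0.84, beside 13.6% and 15.5%.

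Other blood and marrow lineages were set beside the 10 genes. In the hip pair, the lists of these lineages had medians below 0, and 16.3% of all genes were called lower. B lineage genes had 7 of 9 called lower and a median of -2.18, monocyte and macrophage genes 5 of 9 and -1.14, and megakaryocyte and platelet genes 4 of 6 and -1.40. Of 10 erythroid genes, 4 were called lower, with a median of -0.71 in the direction of the labels, and their summed level was 5894 CPM in the control and 2230 CPM in the library labelled deficient. The mature neutrophil genes were thus on the other side of 0 from these lists in the hip, while the early members, at -0.34 (0.14 with the length and GC trend removed), were on the same side as counted. Cd79a, a part of the B cell receptor, had 253 and 48 counts, a log2 ratio of -2.19, and Csf1r, the macrophage growth factor receptor, 1342 and 531 counts and -1.14.

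In the knee pair, where 6.81% of all genes were called lower, eosinophil genes had 5 of 7 called lower and a median of -1.18, and Prg2, the eosinophil major basic protein, had 25118 and 9040 counts. Erythroid genes had 4 of 10 called lower (1 with the trend removed, beside 5.29% of all genes), and their sum was 100068 CPM in the control and 49643 CPM in the library labelled deficient. B lineage genes had 3 of 9 called lower. Monocyte and macrophage genes had a median of 0.07, megakaryocyte genes of 0.24 and haematopoietic progenitor genes of 0.45. Osteoclast genes, whose cells share a myeloid origin with neutrophils, had 5 of 7 called lower with a median of -1.43, and chondrocyte genes 8 of 12. The part of these shifts in the ratios of the 10 genes was not tested.

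**Figure D5:**
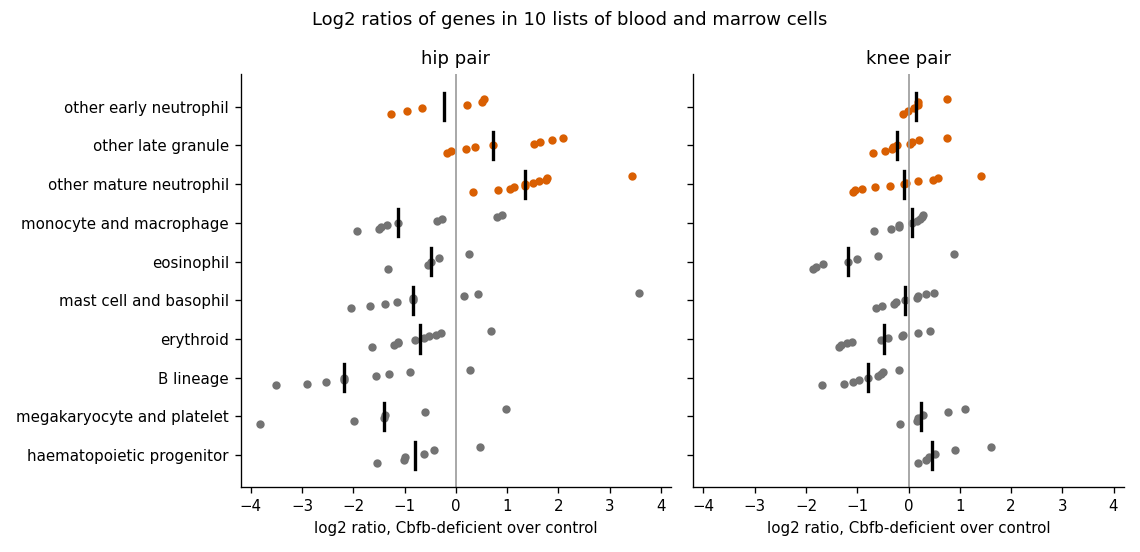
Log2 ratio of each tested gene (points) and the median (black bar) for 3 neutrophil lists without the 10 genes (orange) and 7 lists of other lineages (grey). In the hip the mature neutrophil list, at 1.35, stands to the right of 0 and all 7 other lineages to the left, and in the knee the mature list is near 0 at -0.09, or 0.09 under scaling by library totals.

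Genes with the most similar profiles were sought among 15462 genes counted in both joints with at least 100 counts over the 4 libraries, by the distance between centred log2 CPM values over the 4 libraries. The gene nearest to the early class was Ms4a3, at a distance of 0.23, and Fcnb was the third nearest. Nearest to the late class were Ighg1, an immunoglobulin heavy chain gene, at 0.13, and Ms4a3. The gene nearest to the mean of the mature class was Ndc80, of the kinetochore, at 0.19, followed by Tnfrsf14, a receptor of lymphoid and myeloid cells. The mature members lay farther from that mean, at 0.79 for S100a8, 0.84 for S100a9 and 1.61 for Csf3r, so it describes none of them well. For Csf3r alone, the 5 nearest were Il18rap, Megf9, Adpgk, Tmem154 and Dennd1c. Il18rap, an accessory chain of the interleukin-18 receptor, had 25, 124, 890 and 1746 counts in the hip control, the hip library labelled deficient, the knee control and the knee library labelled deficient. With 4 points, of which the joints differ most, many genes lie close to any profile, and nothing about shared control follows from it.

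Csf3r, Prtn3 and Mpo overlap annotated genes on the opposite strand, and whether the counting used strand is not stated. Reads shared with those partners cannot be told apart from their own.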

How the data were processed

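Poly-A RNA of hip and knee articular cartilage was sequenced, 1 library per condition. The authors deposited whole-number counts of reads per Ensembl gene, without normalization. The hip counts carry the summary lines of HTSeq, with 25.8% and 24.6% of listed reads, which were left out. The knee counting program is not given in the sources used here. The paper states alignment to GRCm39 with STAR, whereas the submitters' processing notes name STAR 2.0, FastQC 0.11.3 and mm10. The notes on extraction name osteoblasts, and the tissue labels were followed.

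GENCODE mouse matched 91.8% of hip and 92.6% of knee identifiers. Counts were normalized by TMM (edgeR 4.0.16, R 4.3.3) within each pair, 0.5 was added to each count, and 95% Clopper-Pearson intervals were computed (Python 3.11.15, numpy 2.4.6, pandas 2.3.3, scipy 1.17.1). Intervals of within-library ratios used a normal approximation of counting error. CPM is per 1000000 counts on genes, and lengths are those of the GENCODE canonical transcript. The length and GC trend was removed as the median of 20 bins each, in 2 rounds. Promoters came from RefSeq, and matplotlib 3.10.9 drew the plots. The ratios and calls were checked on simulated counts. These held counting error only, with no spread between animals and no length or GC trend, so they test the calculation alone.

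The members, lists and alternatives were chosen with earlier results of these data known. The genes named are all 10 members, at most 3 genes of the highest summed CPM from each other list, and the 5 genes nearest to each class and to Csf3r (other names are marked). Individual values of 2 genes of these lists, and the hip count of called oxidase genes, are not reported here. Alternatives were DESeq2 1.42.0 size factors, library totals, an added count of 2, other call rules, summed classes, and removal of the trend or of Ctsg.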

Additional observations from a re-analysis of the deposited data

Results flagged for a closer look

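Of the 10 genes, 3 moved in opposite directions in the hip and the knee pair, beyond both counting intervals. The log2 ratio of S100a8 was 0.76 in the hip and -0.57 in the knee, and that of S100a9 was 0.37 and -0.66. Subtracting the length and GC trend brought them to 0.36 and -0.09 for S100a8 and to 0.09 and -0.18 for S100a9. Elane had -0.59 in the hip and 0.12 in the knee, but after the same step its values were 0.0096 (-0.25 to 0.26) and 0.26, no longer opposite. With 1 library per condition, the difference between joints was not tested. Joint, Cre driver, age and kind of control cannot be told apart in it, and the opposite directions hold only under the hip labels, which the counts of Cbfb do not settle.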

How the results depend on the processing

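No paired analysis was possible because each condition had 1 library and the labels give no replicate numbers. Of the members whose counting interval excluded 0, Elane in the hip and Prtn3 and Ngp in the knee changed direction under at least 1 alternative, and no other did under those run. With the length and GC trend removed, values in the hip became 0.0096 for Elane, 0.14 for the early median, -0.18 for the late and 0.36 for the mature median, and in the knee 0.027 for Prtn3, 0.17 for Ngp, 0.15 for the early, -0.31 for the late and -0.092 for the mature median. Under library totals, the knee gave 0.056 for Prtn3, 0.13 for Ngp, 0.29, -0.049 and -0.39 for the early, late and mature medians, and 1 gene called higher, which was Csf3r. DESeq2 size factors gave knee medians of -0.25 (late) and -0.59 (mature). Ratios of summed counts were 0.56 for the hip mature class and 0.059, -0.34 and -0.61 for the knee early, late and mature classes. With an interval that excludes 0 as the whole call rule, the hip had 3 members higher and 4 lower and the knee 4 higher and 6 lower, and with a log2 ratio of at least 2 in the hip 0 were higher. The knee early share differed by 3.62 percentage points without Ctsg and by 4.55 per transcript length.

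For the lists of other neutrophil genes, alternatives were added after the data were seen. With the trend removed, the hip early list had 2 genes called higher and 0 lower, the hip late median was 0.97, and the knee medians were 0.28, -0.091 and 0.011 (early, late, mature). Under library totals the knee medians were 0.33, -0.046 and 0.087. Both left 0 knee mature genes called lower. The cause of these shifts was not tested. Depth limits Ctsg in the hip most, with 62 and 61 counts. Counting error alone was measured, and the spread between animals is unknown.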
